A study of Homo sapiens with 2 samples.

Results

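The aminoacyl tRNA synthetases were examined in ACHN, a human cell line established from a renal cell carcinoma, after knockdown of KIAA1429, the scaffold of the complex that writes m6A on RNA. Members were taken by gene symbol alone: 37 of the 12014 listed genes encode a synthetase, 20 of them the cytosolic and 17 the mitochondrial form, whose symbols end in 2. All 37 had a mean level of at least 1 FPKM over both libraries and were kept, together with 10702 genes in all. FPKM scales the fragments of a gene by its length and by the size of the library, so levels of different genes can be set side by side. The cells had been infected with lentivirus that delivers a KIAA1429 hairpin (group shKIAA1429) or a control hairpin (group shNC) and selected with puromycin as stable cells, and both groups share the infection and the selection. The sample labels call the first group a knockout, whereas the methods of the study describe a knockdown, and which of its KIAA1429 shRNAs was sequenced is not given in the sources used here. There was 1 library per group, so every difference below compares 2 libraries, has no replicate error and carries no p-value.

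Aminoacyl tRNA synthetases join each amino acid to its tRNA, and the charged tRNA carries it to the ribosome. Human cells use separate nuclear genes for the cytosol and for the mitochondrion, with a few shared between the compartments. The enzymes fall into class I and class II by the fold of the catalytic domain, and a group of cytosolic synthetases is held together with scaffold proteins in the multi-synthetase complex. Uncharged tRNA activates the kinase GCN2 (EIF2AK4), which leads to translation of the transcription factor ATF4, and several cytosolic synthetase genes are known targets of ATF4.

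The targeted gene, listed as VIRMA, was at 3.92 FPKM with shNC and 3.22 FPKM with shKIAA1429, or 82.1% of the control level. Its log2 change, computed as described below, was -0.22, within the limit of 0.25 used below. For comparison, 17.1% of all genes kept had a log2 change below -0.25. The paper reports reduced mRNA and protein of this gene in its stable ACHN cells by RT-qPCR and western blot. The FPKM values by themselves show only a small decrease. The listed genes summed to 283046 FPKM with shNC and 249409 FPKM with shKIAA1429, and the read depth is unknown. The 13 mitochondrially encoded genes made up 42.2% and 34.6% of these sums. Of 12 markers of renal tubule and ACHN cells, 10 were listed, PAX8 and KRT18 among them, and CA12 and CDH6 were not. Of 14 markers of fibroblasts, leukocytes and endothelium, 3 were listed (COL1A1, PDGFRB and CD68), none above 3.87 FPKM. In bulk RNA a change in the number of cells of a type and a change in RNA per cell cannot be told apart.

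Several promoters of cytosolic synthetases share a short sequence, shown here because ATF4 acts through it. The C/EBP-ATF response element, bound by ATF4 with a C/EBP partner, has the core TGATGNAA. It was searched on both strands in RefSeq promoters of GRCh38.p14, from 250 bases before to 50 bases after each gene start, which were given for 30 of the 37 synthetases (16 cytosolic and 14 mitochondrial). The core was found in 7 of 16 cytosolic promoters (43.8%), in 1 of 14 mitochondrial promoters (7.14%) and in 4.46% of the promoters of 27305 genes. The core is in capitals below, with 10 bases on each side, on the strand of the gene from 5′ to 3′, and where the core is on the opposite strand its reverse complement is in capitals.
CARS, chr11:3057408-3057435, minus strand: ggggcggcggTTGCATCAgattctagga
MARS, chr12:57488054-57488081, plus strand: ccggttccggTTGCATCAgcgagggatt
TARS, chr5:33440957-33440984, plus strand: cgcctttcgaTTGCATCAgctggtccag
IARS, chr9:92293693-92293720, minus strand: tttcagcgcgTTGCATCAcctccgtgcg
AARS, chr16:70289676-70289703, minus strand: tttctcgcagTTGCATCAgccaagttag
NARS, chr18:57621805-57621832, minus strand: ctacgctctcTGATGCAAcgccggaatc
GARS, chr7:30594835-30594862, plus strand: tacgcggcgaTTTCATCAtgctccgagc
YARS2, chr12:32756077-32756104, minus strand: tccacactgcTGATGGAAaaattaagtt

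In 6 of the 7 cytosolic promoters the first base of the core lay between -33 and 14 bases from the start, whose own base is 0, and in AARS it lay at -187. In YARS2, the mitochondrial gene among them, it lay at -197. A match of letters is a description and not a shown binding site. The E-box CACGTG, the motif bound by MYC with MAX, stood in 1 cytosolic promoter (IARS) and in 3 mitochondrial ones (CARS2, EARS2 and MARS2), against 8.77% of all promoters. The cAMP response element TGACGTCA was found in 0 of the 30 promoters, against 2.25% of all. AARS2, DARS, LARS, VARS, VARS2 and YARS were among the genes for which no promoter was given.

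Cytosolic synthetases were expressed well above the mitochondrial ones in both libraries. Summed over genes, the 20 cytosolic synthetases reached 673 FPKM with shNC and 715 FPKM with shKIAA1429, and the 17 mitochondrial ones 145 and 135 FPKM. The cytosolic sum was thus 4.64 times the mitochondrial sum in the control library and 5.29 times in the knockdown library. These ratios count GARS and KARS as cytosolic, although both genes also encode the mitochondrial enzyme. Leaving both out lowered the cytosolic sums to 495 (control) and 515 FPKM (knockdown), still above the mitochondrial sums. The rise of the cytosolic sum between the libraries was then 4.06%, against 6.16% with both genes included. Median levels were 23.8 and 27.0 FPKM for the cytosolic and 5.31 and 4.95 FPKM for the mitochondrial genes.

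**Figure D1:**
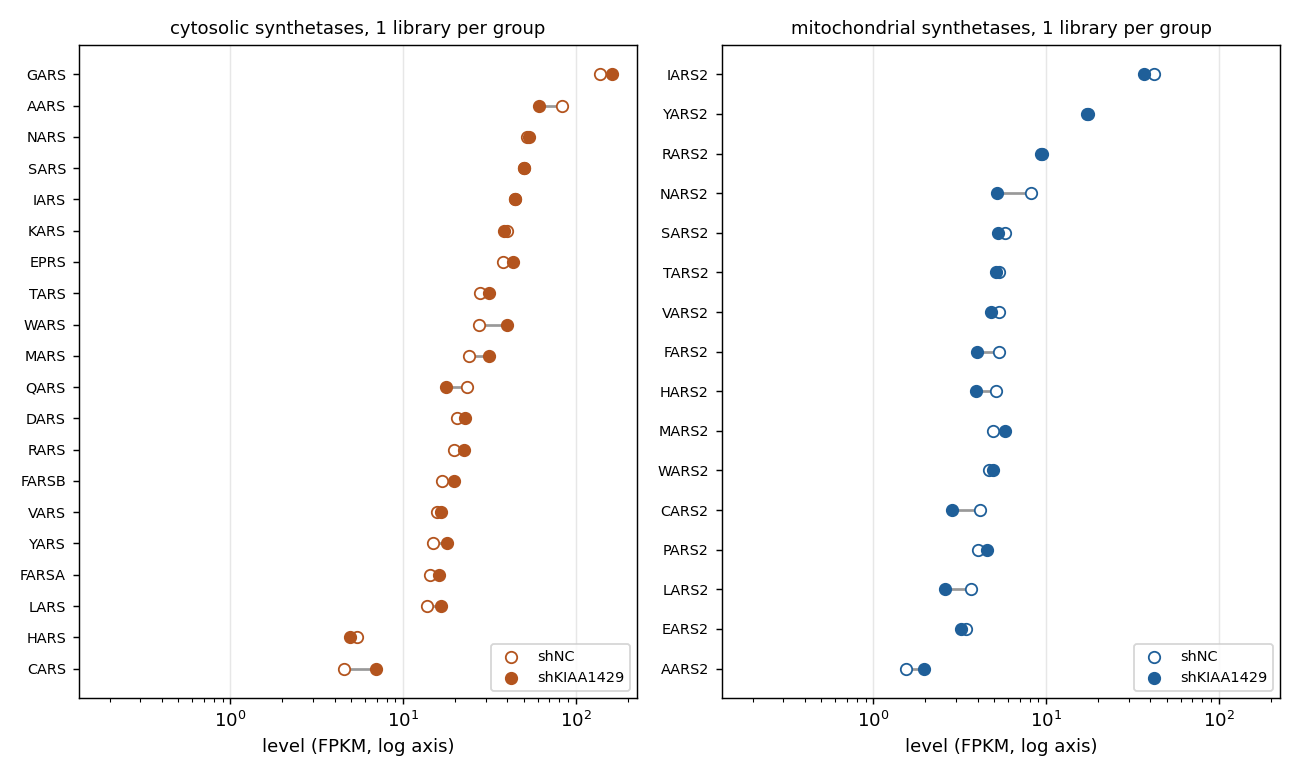
Level of each synthetase in FPKM on a log axis, cytosolic genes on the left and mitochondrial genes on the right, each sorted by its level with shNC, for the 36 genes named here. Open circles are the shNC library and filled circles the shKIAA1429 library, 1 library each, so no error is drawn. GARS has the highest level in both libraries and AARS2 the lowest, and most pairs of circles lie close together.

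GARS, on chromosome 7 of GRCh37 (30634297 to 30673649), encodes both the cytosolic and the mitochondrial glycine enzyme. It held the highest level of the family, 138 FPKM with shNC and 161 FPKM with shKIAA1429. AARS, the alanine enzyme, followed in both libraries, with 83.3 and 60.8 FPKM. NARS, SARS and IARS kept ranks 3 to 5 of the 37 in both. At the other end of the cytosolic genes stood CARS and HARS, whose levels lay among those of the mitochondrial genes in both libraries. Of the mitochondrial synthetases, IARS2 stood apart with 41.8 and 36.8 FPKM, and without it the mitochondrial sum was 103 and 98.4 FPKM. YARS2 followed with 17.4 and 17.3 FPKM, and RARS2, the next one named here, stood at 9.38 and 9.37 FPKM. AARS2, the mitochondrial alanine enzyme, was the lowest of the family, at 1.53 and 1.96 FPKM.

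The knockdown was compared with the control by log2 ratios, shKIAA1429 over shNC, after adding 1 to each FPKM, which makes changes of weakly expressed genes look smaller than they are. The cytosolic synthetases had a median log2 change of 0.17, the mitochondrial ones of -0.08 and all 10702 genes of 0.06. The difference between the medians was 0.25. Once the trend of the change with GC content and transcript length was removed, the cytosolic median was 0.050 and the difference 0.13. Higher levels with shKIAA1429 were seen for 15 of 20 cytosolic synthetases, against 57.3% of all genes, and lower levels for 12 of 17 mitochondrial ones, against 42.7% of all genes. The direction of the mitochondrial median depended on the scale. With each library rescaled to a sum of 1000000 it was 0.08, while the median of all genes became 0.24 and the cytosolic median 0.36. Rescaling without the mitochondrially encoded genes kept its direction, with medians of -0.09 (mitochondrial), 0.07 (all genes) and 0.18 (cytosolic). Relative to the median of all genes, the cytosolic median lay 0.11 above and the mitochondrial median 0.13 below with the deposited FPKM. After rescaling to a sum of 1000000 these were 0.12 above and 0.16 below. The spread over genes (SD) was 0.25 among the cytosolic and 0.24 among the mitochondrial synthetases, and 0.40 among all genes, so the ranges of the groups overlapped widely.

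No synthetase passed 1.5 on the log2 scale, a limit given in the study's methods for gene differences, which 0.635% of all genes passed in either direction. A smaller limit of 0.5 was passed upward by 2 synthetases, CARS and WARS, out of 37, against 9.9% of all genes, and downward by 1, NARS2, against 6.12% of all genes. At a limit of 0.25 there were 3 higher synthetases, all cytosolic, against 27.1% of all genes, and 7 lower ones, 2 cytosolic and 5 mitochondrial, against 17.1% of all genes. The remaining 27 lay within 0.25 of 0.

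**Figure D2:**
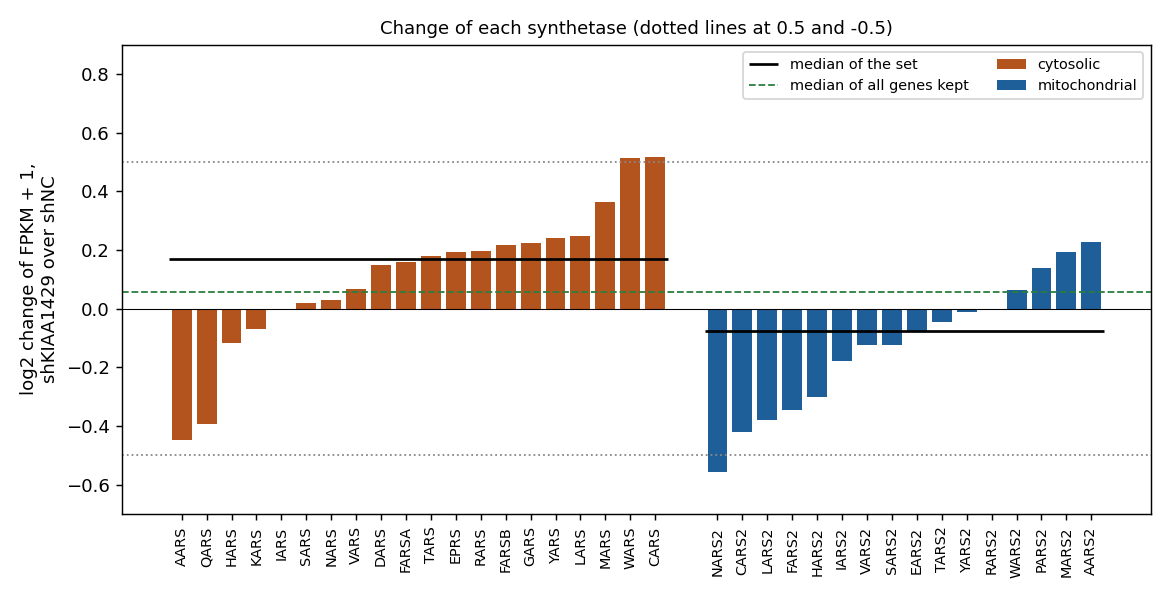
Log2 change of FPKM + 1, shKIAA1429 over shNC, for each of the 36 synthetases named here as a bar, sorted within the cytosolic and the mitochondrial group. Black lines mark the median of each group (0.17 and -0.08), the dashed line the median of all genes kept (0.06) and dotted lines the limit of 0.5 in either direction, which CARS, WARS and NARS2 pass.

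CARS, which charges cysteine and lies on chromosome 11 of GRCh37 (3022152 to 3078843), was at 4.54 FPKM with shNC and 6.92 FPKM with shKIAA1429, a log2 change of 0.52. WARS, the tryptophan enzyme on chromosome 14 (100800125 to 100843142), was at 27.4 and 39.6 FPKM, a log2 change of 0.51. Both stood just past the limit and came to 0.46 when centred on the median of all genes. The upper tail of the family was completed by MARS, the methionine enzyme of the multi-synthetase complex on chromosome 12 (57869228 to 57911352), with 24.1 and 31.3 FPKM and a log2 change of 0.36. MARS overlaps DDIT3 on the opposite strand, and DDIT3, a transcription factor gene of the stress response, was at 54.8 and 107 FPKM. The libraries were made with strand marks, but whether strand was used in the assignment of reads is not given in the sources used here, so a share of DDIT3 reads in MARS was not tested.

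A further 9 cytosolic synthetases had log2 changes between 0.147 and 0.247. LARS (leucine) was at 13.7 FPKM with shNC and 16.5 FPKM with shKIAA1429. YARS (tyrosine) was at 14.9 and 17.8 FPKM, and GARS, given above, had a log2 change of 0.22. The subunits of the phenylalanine enzyme moved side by side, FARSB with 16.8 and 19.7 FPKM and a log2 change of 0.22, FARSA with 14.2 and 16.04 FPKM and a log2 change of 0.16. RARS (arginine) was at 19.6 and 22.6 FPKM, and EPRS, which charges glutamate and proline in 1 chain, at 37.7 and 43.3 FPKM. TARS (threonine) was at 27.7 and 31.5 FPKM, and DARS (aspartate) at 20.3 and 22.6 FPKM. With the trend with GC content and length removed, LARS, RARS, EPRS, DARS, FARSB and TARS came to between 0.0041 and 0.088, and GARS, YARS and FARSA to between 0.14 and 0.30. VARS (valine), with 15.7 and 16.5 FPKM, had a log2 change of 0.07, close to the median of all genes.

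A set of cytosolic synthetases stayed nearly level. NARS (asparagine) was at 52.1 FPKM with shNC and 53.3 FPKM with shKIAA1429, SARS (serine) at 49.6 and 50.2 FPKM, and IARS (isoleucine) at 44.4 and 44.2 FPKM. KARS, which encodes both the cytosolic and the mitochondrial lysine enzyme, was at 40.1 and 38.1 FPKM, and HARS (histidine) at 5.41 and 4.92 FPKM. HARS, at 0.908 of its control level, had the widest gap of these 5 genes.

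The lower end of the cytosolic group was formed by AARS and QARS. AARS, on chromosome 16 of GRCh37 (70286198 to 70323446), was at 83.3 FPKM with shNC and 60.8 FPKM with shKIAA1429, a log2 change of -0.45, lower than that of all but 7.49% of genes. QARS, the glutamine enzyme on chromosome 3 (49133365 to 49142568), was at 23.5 and 17.6 FPKM, a log2 change of -0.39. These genes ran against the other cytosolic synthetases, of which only HARS, KARS and IARS also had values below 0.

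Among the mitochondrial synthetases, the lowest change belonged to NARS2, the asparagine enzyme on chromosome 11 of GRCh37 (78147007 to 78285919). NARS2 was at 8.12 FPKM with shNC and 5.19 FPKM with shKIAA1429, a ratio of 0.639 and a log2 change of -0.56. CARS2 (cysteine) was at 4.15 and 2.85 FPKM, a log2 change of -0.42. LARS2 (leucine) was at 3.69 and 2.60 FPKM, a log2 change of -0.38. The error of these values is unknown without counts. FARS2 (phenylalanine) was at 5.31 and 3.96 FPKM, and HARS2 (histidine) at 5.09 and 3.94 FPKM, with log2 changes of -0.35 and -0.30. IARS2, the most abundant mitochondrial synthetase, had a log2 change of -0.18.

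Near 0 stood another set of mitochondrial synthetases. VARS2 was at 5.31 FPKM with shNC and 4.79 FPKM with shKIAA1429, and SARS2 at 5.78 and 5.22 FPKM, both with a log2 change of -0.12. EARS2 (glutamate) was at 3.45 and 3.22 FPKM and TARS2 at 5.33 and 5.13 FPKM. YARS2 and RARS2, whose levels are given above, were the most level genes of the group, and WARS2 was at 4.69 and 4.95 FPKM. Values were higher with shKIAA1429 for PARS2 (proline), at 4.03 and 4.53 FPKM, and for MARS2, at 4.89 and 5.73 FPKM. AARS2 had a log2 change of 0.23, the highest of the 17 mitochondrial genes. Over 6 other settings of scale, pseudocount, centring and sequence trend, 12 of the 37 synthetases changed sign under at least 1, all of them with a log2 change between -0.12 and 0.06, and the other 25 kept it.

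To set the compartments against each other for the same amino acid, 17 pairs were formed, with EPRS used for glutamate and for proline and the mean of FARSA and FARSB for phenylalanine. The change of the cytosolic gene was higher than that of its mitochondrial partner in 15 of 17 pairs, with a median difference of 0.20 on the log2 scale. This count was 14 after removal of the trend with GC content and length, where the median difference was 0.19, and it stayed at 15 with each scaling tried. In 10 pairs the cytosolic gene was higher and the mitochondrial gene lower with shKIAA1429, in 4 both were higher and in 2 both were lower. These counts depended on the scale, and after rescaling to a sum of 1000000 they were 6, 10 and 0. Pairs were not independent of each other, since all came from the same libraries.

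**Figure D3:**
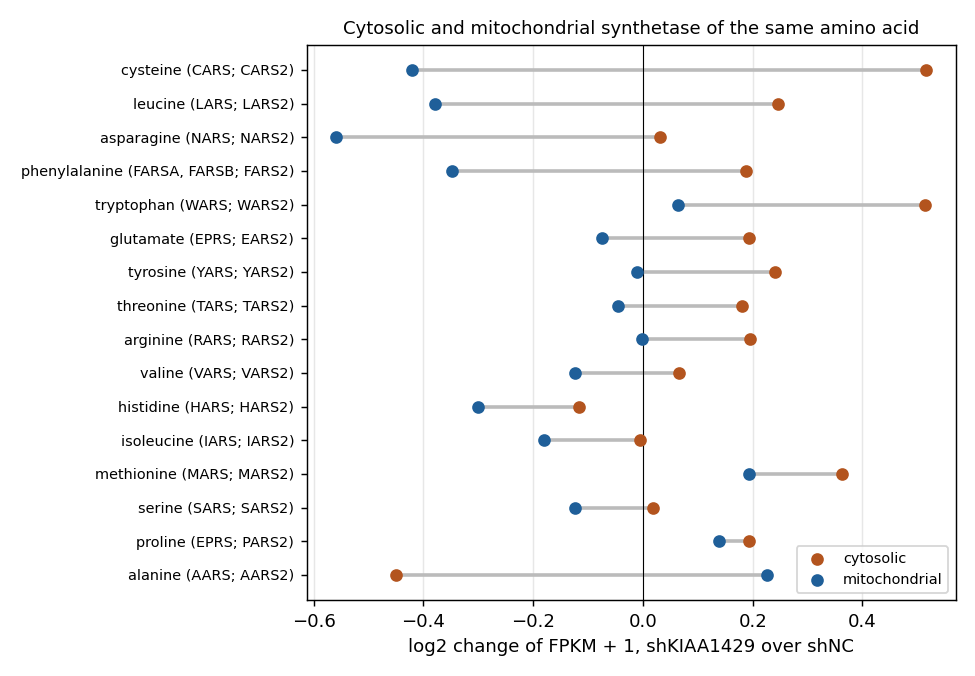
Log2 change of FPKM + 1, shKIAA1429 over shNC, of the cytosolic and the mitochondrial synthetase for each of the 16 pairs named here, joined by a grey line and sorted by the difference. The cytosolic point lies to the right in 15 of them, with cysteine at the top and alanine, where the order is turned, at the bottom.

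Cysteine showed the widest gap, with a log2 change of 0.52 for CARS and -0.42 for CARS2, a difference of 0.94. In the control library both genes stood at about the same level, with CARS at 1.09 times CARS2, and in the knockdown library at 2.43 times. Leucine followed with a difference of 0.63, asparagine with 0.59 and phenylalanine with 0.54. The CARS2 promoter holds an E-box whose first base lies at -3 from the start, and the CARS promoter the ATF core printed above. The other genes with an E-box, IARS, EARS2 and MARS2, had log2 changes of -0.0062, -0.075 and 0.19. The 7 cytosolic genes with the core ranged from -0.45 to 0.52. A part of these motifs in the gap was not tested. At isoleucine, tyrosine and histidine, cytosolic and mitochondrial genes had similar levels, and YARS passed YARS2 only in the knockdown library (0.856 and 1.03 times the level of YARS2).

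Alanine departed furthest from this order. AARS was lower and AARS2 higher with shKIAA1429, a difference of -0.68, and the ratio of AARS to AARS2 went from 54.3 in the control to 30.9 in the knockdown library. Without replicates no error can be given for this difference.

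HARS and HARS2 lie head to head on chromosome 5, and their RefSeq starts are 85 bases apart, so the stretch between them is shared by both promoters. Both genes were lower with shKIAA1429, by 0.12 for HARS and 0.30 for HARS2 on the log2 scale, and HARS was the cytosolic gene of rank 18 of 20 by change. The direction of HARS depended on the scale. After rescaling to a sum of 1000000, the log2 change was 0.042 for HARS and -0.18 for HARS2. The stretch, printed from the start of HARS to that of HARS2 on the plus strand of GRCh38.p14, has a GC content of 59.3% and holds 9 CG dinucleotides.
HARS to HARS2, chr5:140691370-140691455: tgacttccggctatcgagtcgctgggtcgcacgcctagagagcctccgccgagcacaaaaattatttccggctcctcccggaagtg

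In the positions of the files these genes overlap on opposite strands. HARS2 also overlaps ZMAT2, and VARS2 overlaps GTF2H4, on the same strand, and the division of reads between such neighbours was not tested. The other 35 synthetases overlap no listed gene on their strand. Overlaps on the opposite strand include WARS with WDR25, YARS with S100PBP, KARS with TERF2IP and CARS2 with ING1. They also include SARS2 with MRPS12, EARS2 with UBFD1, YARS2 with DNM1L, MARS with ARHGAP9 and HARS with WDR55. Whether strand was used in the assignment of reads is not given, and a share of reads from these neighbours was not tested. Processed or unprocessed pseudogenes named after 11 of the 37 genes, KARS, CARS, WARS and GARS among them, are annotated in GENCODE 29, and reads of these genes could have been split with such copies.

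The 8 synthetases of the multi-synthetase complex had a median log2 change of 0.17, as had the 12 cytosolic ones outside it. Within the complex, MARS, LARS, RARS, EPRS and DARS were higher with shKIAA1429, IARS and KARS nearly level and QARS lower. With the trend with GC content and length removed, LARS, RARS, EPRS and DARS came to log2 changes between 0.0041 and 0.058, and MARS to 0.36. IARS, KARS and QARS then came to -0.10, -0.09 and -0.33. The cytosolic synthetases outside the complex then ranged from -0.49 for AARS to 0.52 for WARS. Medians of the complex and of those outside it were not computed with this trend removed. Of the scaffold proteins, AIMP1 was at 12.8 FPKM with shNC and 12.7 FPKM with shKIAA1429, EEF1E1 at 10.97 and 11.7 FPKM, and AIMP2 at 40.6 and 34.9 FPKM, a log2 change of -0.21.

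By structural class, the 9 cytosolic class I synthetases had a median log2 change of 0.24 and the 10 of class II a median of 0.09. EPRS, which has a catalytic domain of each class, was set apart. Class medians were not computed with the trend with GC content and length removed. CARS, WARS and MARS, the highest of the family, are all of class I, and so is QARS, among the lowest. No such gap was seen among the mitochondrial genes, where 9 of class I had a median of -0.08 and 8 of class II a median of -0.08. The 7 cytosolic synthetases with the ATF core in their promoter had a median of 0.18 and ranged from -0.45 for AARS to 0.52 for CARS. The 9 without it had a median of 0.16 and ranged from -0.39 to 0.51. The ranges with and without the core overlapped almost completely.

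Other genes of amino acid sensing and charging were followed with lists. The amino acid response list of 30 genes held the eIF2 kinases, EIF2S1 (eIF2 alpha), GCN1, PPP1R15B, and ATF4 with its known targets. Its median log2 change was 0.31. Of its genes, 9 were above 0.5 and 1, PHGDH of serine synthesis, below -0.5, to be read against 9.9% and 6.12% of all genes. STC2, a secreted glycoprotein, was at 4.20 FPKM with shNC and 11.3 FPKM with shKIAA1429, a log2 change of 1.24. ATF3, a stress-induced transcription factor, was at 4.98 and 13.1 FPKM, a log2 change of 1.24. PPP1R15A, which directs dephosphorylation of eIF2 alpha, was at 22.9 and 45.8 FPKM, and CHAC1, which degrades glutathione, at 6.27 and 13.2 FPKM, both with a log2 change of 0.97. DDIT3, given above, had a log2 change of 0.95. ATF4 itself was lower, at 181 and 146 FPKM, a log2 change of -0.31, and EIF2AK4, which senses uncharged tRNA, was at 9.88 and 9.11 FPKM. ASNS, which makes asparagine and is a classic ATF4 target, was at 20.5 and 25.6 FPKM, a log2 change of 0.31. This was above the change of 17 of the 20 cytosolic synthetases. Other amino acid synthesis genes of the list varied, with log2 changes of 0.35 (SHMT2), 0.15 (PSPH) and 0.12 (PSAT1). PYCR1 was at 0.09, ALDH18A1 at -0.06 and CTH at -0.29.

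**Figure D4:**
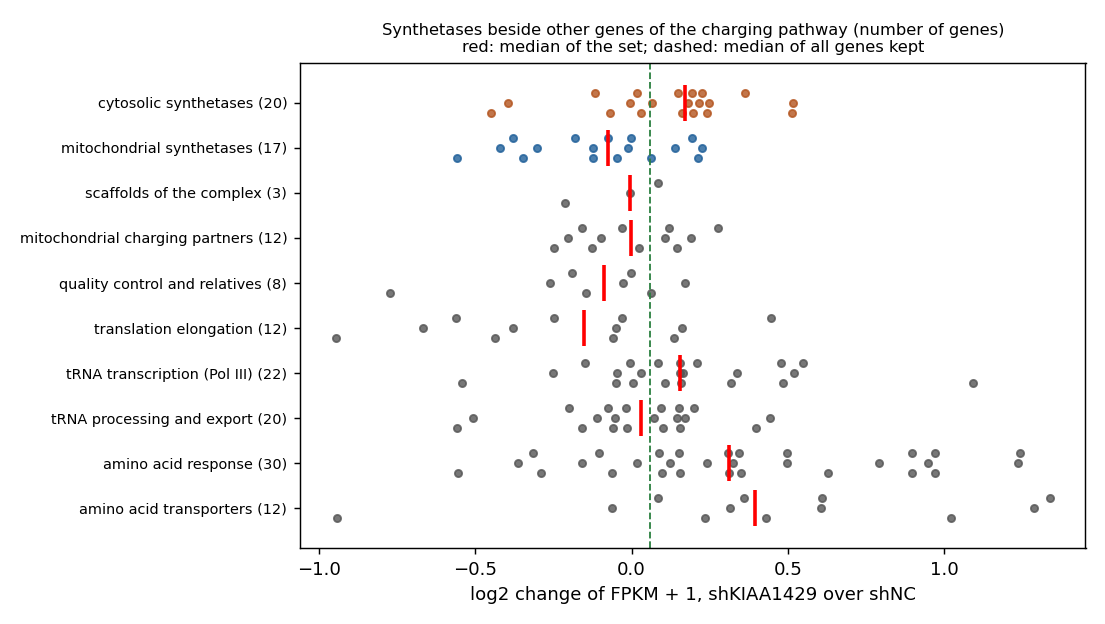
Log2 change of FPKM + 1, shKIAA1429 over shNC, of the synthetases and of each list of the charging pathway, with 1 point per gene, the number of genes in brackets, red lines for the median of each set and a dashed line for the median of all genes kept (0.06). The points of the synthetases lie between -0.56 and 0.52, while the amino acid response and transporter lists reach 1.24 and 1.34.

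The 12 kept genes of the list of amino acid transporters had a median of 0.39, with 5 genes above 0.5 and 1 below -0.5, against 9.9% and 6.12% of all genes. SLC7A11, the cystine and glutamate exchanger, was at 1.92 FPKM with shNC and 6.38 FPKM with shKIAA1429, a log2 change of 1.34. SLC38A2, a carrier of small neutral amino acids, was at 42.6 and 105 FPKM, a log2 change of 1.29, and SLC6A9, a glycine transporter, at 1.88 and 4.84 FPKM, a log2 change of 1.02. SLC7A5, the light chain of the large neutral amino acid exchanger, was at 49.3 and 75.7 FPKM, and SLC36A1, a lysosomal carrier, was lower, at 2.07 and 0.597 FPKM. The medians of both lists were above 0 with every scaling tried and after removal of the trend with GC content and length (0.26 and 0.23).

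The list of 12 partners of the synthetases in mitochondria had a median log2 change of -0.0025, which was 0.17 after rescaling to a sum of 1000000 and -0.08 after removal of the trend with GC content and length. None of them, 0 of 12, went past 0.5 up or down, against 9.9% and 6.12% of all genes. TUFM, the mitochondrial elongation factor that binds charged tRNA, was at 115 FPKM with shNC and 96.5 FPKM with shKIAA1429. GATC and QRSL1, subunits of the enzyme that completes glutaminyl tRNA in mitochondria, had log2 changes of -0.20 and 0.11, and MTFMT, which formylates the initiator methionyl tRNA, of -0.10. The 13 mitochondrially encoded genes, whose proteins these tRNAs serve, had a summed level of 119460 FPKM with shNC and 0.722 times that with shKIAA1429. With the libraries rescaled without these genes, the median log2 change of the mitochondrial synthetases was -0.09, against -0.08 with the deposited FPKM. With these genes included in a rescaled sum of 1000000, that median was 0.08. A link between the lower level of the mitochondrially encoded genes and the mitochondrial synthetases was not tested.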

How the data were processed

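RNA of shNC and shKIAA1429 ACHN cells was measured by strand-marked, paired-end poly(A) RNA-seq, with 1 library each. The authors deposited FPKM per gene. The submitters' processing notes name cutadapt 1.9, HISAT2 2.0.4, StringTie 1.3.4d, DESeq2 and edgeR, without their roles. The genome build is not given in the sources used here, and positions are those of GENCODE genes on GRCh37. FPKM keeps no read depth, so no counting interval could be given. FPKM depends on the other genes of a library, which is why rescaled values were also computed.

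Members were chosen by symbol, and members and lists were chosen with earlier results of these data known. Genes with a mean of at least 1 FPKM were kept, taking 1 entry for each of 7 repeated symbols. Changes were log2 of (FPKM + 1), read against limits of 0.25, 0.5 and 1.5, with no test. The GC content and length trend was the median change in joint bins, 10 of each. Every synthetase is named except 1, which is not reported here on its own and stays in the counts, sums and medians, and from each list up to 5 genes with the largest change past 0.5, with scaffold proteins and VIRMA. Other list genes were named for their role after their values were seen. Promoters came from RefSeq (GRCh38.p14), matched by symbol. A planned account of protein sequences was not made, as no protein table was used here. Python 3.11.15, NumPy 2.4.6, pandas 2.3.3 and matplotlib 3.10.9 were used, and the computation was tested on simulated data.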

Additional observations from a re-analysis of the deposited data

How the results depend on the processing

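No paired analysis was possible because each group holds 1 library. Rescaling both libraries to sums of 1000000 gave a cytosolic median of 0.36 and a mitochondrial median of 0.079. There, 6 of 17 mitochondrial synthetases were lower, while 74.6% of all genes were higher. Below -0.5 were 0 synthetases, against 4.59% of all genes. With mitochondrially encoded genes left out of the sums, the cytosolic and mitochondrial medians were 0.18 and -0.090. Then 11 mitochondrial synthetases were lower, while 57.7% of all genes were higher. Removing the GC content and length trend gave a cytosolic median of 0.050 and a difference of medians of 0.13. At a mean of at least 5 FPKM, 7 of 9 mitochondrial synthetases were lower, while 56.7% of all genes were higher. The count below -0.5 was 2 with a pseudocount of 0.1, against 8.73% of all genes. It was 2 after rescaling without mitochondrially encoded genes, against 8.39% of all genes. After centring it was 2, against 7.69% of all genes, with 0 above 0.5, against 7.64%. With limits of 0.25 and 1.5 the counts below were 7 and 0, and 0 synthetases were above 1.5. Of all genes, 17.1% were below -0.25 and 0.635% were past 1.5 in either direction. Rescaling followed by centring, added after seeing the data, gave 1 above 0.5 and 4 below -0.5, against 10.2% and 10.3% of all genes. The settings for the counts of direction, the pairs and the lists were also chosen after seeing the data. The difference of medians was above 0 under every setting run, from 0.13 to 0.28. The causes of these shifts were not tested, and without counts the precision of low genes is unknown.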

Other observations

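Of the 22 genes of the list of RNA polymerase III, which transcribes tRNA genes, 16 were higher with shKIAA1429, against 57.3% of all genes. Of these 22, 3 were above 0.5 and 1 below -0.5, against 9.9% and 6.12% of all genes. The median log2 change of the list was 0.15, and it was 0.07 with the trend with GC content and length removed, 0.35 after rescaling to a sum of 1000000 and 0.10 after centring. POLR3K, a small polymerase subunit, was at 6.004 FPKM with shNC and 9.24 FPKM with shKIAA1429, and BDP1, a subunit of the initiation factor TFIIIB, at 3.62 and 5.63 FPKM. CRCP, at 1.69 and 4.73 FPKM, had the largest change (1.09) and overlaps another listed gene on its strand. POLR3GL, an alternative polymerase subunit, was lower, at 13.9 and 9.21 FPKM. The 20 kept genes of tRNA processing and export had a median of 0.03, which was 0.21 after rescaling, -0.03 after centring and -0.02 with the trend removed. Below -0.5 were 2 of them, against 6.12% of all genes: RPP14, which overlaps HTD2 on its strand, at 1.62 and 0.779 FPKM, and TSEN34 of the splicing endonuclease, at 9.96 and 6.72 FPKM.

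The list of translation elongation had a median of -0.15 over 12 genes, and 3 of them were below -0.5, against 6.12% of all genes. EEF1A1, the main carrier of charged tRNA to the ribosome, was at 992 and 625 FPKM. Its relative EEF1A2 was at 97.4 and 50.1 FPKM, and the translocase EEF2 at 646 and 438 FPKM. After rescaling to a sum of 1000000 the median of this list was 0.03 and 1 gene was below -0.5, against 4.59% of all genes. The 8 kept genes of charging quality control and relatives of synthetases had a median of -0.09, which became 0.04 after rescaling. Below -0.5 was 1 of them, DTD1, which removes D-amino acids from tRNA. It was at 28.9 and 16.5 FPKM and overlaps SMIM26 on its strand.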
